A study of Mus musculus with 18 samples.

Results

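Krüppel-like factors are DNA-binding proteins with a block of zinc fingers at the C-terminal end, and 8 of their genes, *Klf2*, *Klf3*, *Klf4*, *Klf6*, *Klf7*, *Klf9*, *Klf10* and *Klf13*, were followed here in a mouse macrophage line. They were taken by gene symbol from a table of 56748 genes, which holds 17 genes named Klf with a number and 609 genes that the authors' annotation places in the zf-C2H2 family. RAW 264.7 cells, a mouse macrophage line at passage 3, were seeded into 6-well plates for 6 conditions with 3 libraries each, 18 in all. The Control cells had medium alone, listed by the study with its 12 h groups, TBHQ cells had 5 µM tert-butylhydroquinone for 4 h, LPS cells had 0.1 µg/mL lipopolysaccharide for 12 h, and PIC cells had 20 µg/mL poly(I:C) for 12 h. LPS+TBHQ and PIC+TBHQ cells had the same TBHQ dose for 4 h and then LPS or PIC for 12 h. TBHQ cells were harvested at 4 h, so TBHQ and harvest time cannot be told apart in their comparison with other groups. TBHQ was dissolved in DMSO and no carrier is stated for the cells without TBHQ, so TBHQ and DMSO cannot be told apart against Control, LPS or PIC cells.

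The family binds GC-rich boxes and CACCC elements in promoters, and its members differ mainly in the parts outside the zinc fingers that recruit coactivators or corepressors. In macrophages, KLF2 and KLF4 are known for holding back or redirecting inflammatory gene expression, KLF6 for promoting it, and KLF10 for its induction by TGF-β. LPS is sensed by TLR4, poly(I:C) stands in for viral double-stranded RNA, and TBHQ activates the transcription factor NRF2.

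The libraries held 14423390 to 18851626 counts assigned to genes, with a median of 15742337. The study speaks of 3 biological replicates per condition, and whether these were separate cultures or wells of the same culture is not stated in the sources used. Levels are given as the authors' FPKM, fragments per kilobase of gene scaled by a factor per library, with values in the order of replicates 1, 2 and 3. That factor was not the total alone, since FPKM came to a constant times the count per kilobase over the total, with the constant from 0.943 to 0.951 in Control and from 1.11 to 1.12 in PIC libraries. Differences are log2 fold changes from an edgeR quasi-likelihood fit of the raw counts of 13691 genes, and a gene is called changed at an adjusted p (Benjamini-Hochberg over those genes) under 0.05. All 8 genes passed the filter on low counts. Macrophage markers were present, with 8 of 8 above 3 counts and *Lyz2* the most abundant at a mean of 4021 FPKM. Of the epithelial and T cell markers, 0 of 4 on either list passed 3 counts in a library. Fibroblast and B cell lists had 2 of 4 above 3 counts, with *Dcn* at a mean of 0.0239 and *Cd79a* at 0.154 FPKM, and the endothelial list had 4 of 4, with *Vwf* at 1.28. The neutrophil list moved with the stimuli, from a summed 0.878 FPKM in Control to 3.26 in LPS and 5.59 in PIC cells (0.264 to 6.01 over the libraries), through *S100a8* (mean 2.89 FPKM), with 2 of 4 genes above 3 counts and *Ly6g* and *S100a9* at 0. The part of these lists in the results was not tested. Of 4 response genes, *Gclm* rose with TBHQ by 1.82, *Ptgs2* with LPS by 4.25 and *Cxcl10* with PIC by 3.39 on the log2 scale. These genes also moved with other labels. *Ptgs2* went from 17.0 to 43.6 and *Cxcl10* from 3.46 to 5.41 FPKM with TBHQ alone, and *Gclm* from 17.9 to 34.4 with LPS. *Hmox1*, also on that list, was at 194 FPKM in Control, 829 in TBHQ, 980 in LPS and 1164 in PIC cells.

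The 8 genes covered a wide span of levels per unit length. In Control cells, *Klf6* stood first at 41.4 ± 0.851 FPKM (mean ± SD, n = 3), followed by *Klf10* at 8.23 ± 0.686. Next came *Klf13* at 5.31 ± 0.246 and *Klf9* at 5.02 ± 0.197, and these neighbours overlapped. *Klf2* at 3.61 ± 0.230 and *Klf7* at 2.87 ± 0.275 FPKM were lower and apart from their neighbours in the order. *Klf4* at 1.55 ± 0.172 and *Klf3* at 1.47 ± 0.0836 FPKM were lowest and overlapped. In PIC cells the order was different, since *Klf6* at 86.8 ± 3.26 was followed by *Klf13* at 6.93 and *Klf7* at 6.70 FPKM, and *Klf10* had moved down to 3.60.

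The members' summed FPKM was 69.5 ± 1.21 in Control cells and 68.8 ± 2.17 in TBHQ cells (SD, n = 3). It was 91.9 ± 1.91 in LPS cells and 76.9 ± 0.860 in LPS+TBHQ cells. It was highest in PIC cells at 116 ± 3.46 and stood at 88.9 ± 0.903 in PIC+TBHQ cells. Most of that sum was *Klf6*, which made up 59.6% of it in Control cells and 74.6% in PIC cells. The members together held 82.3% of the FPKM of the 17 Klf genes in Control cells and 89.6% in PIC cells.

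**Figure D1:**
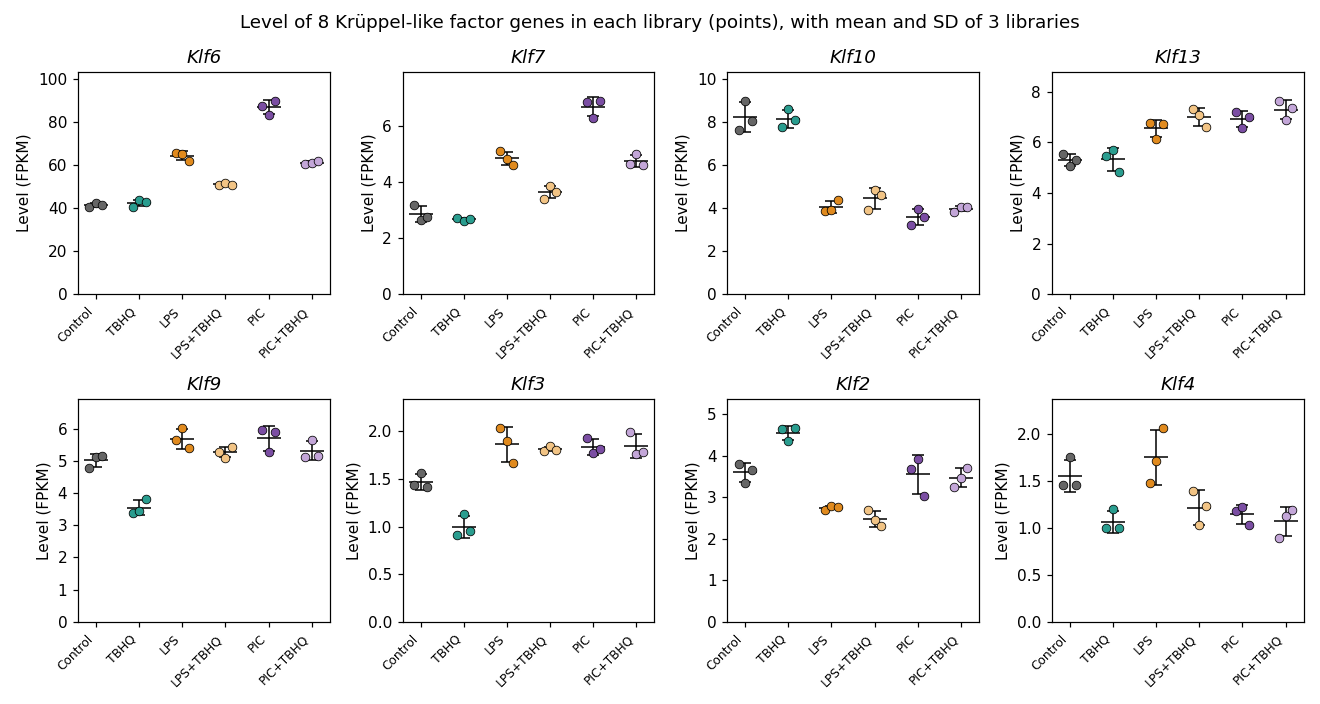
FPKM of each member in the 18 libraries by condition, 1 panel per gene; points are libraries and bars are the mean ± SD (n = 3). *Klf6* and *Klf7* were highest in PIC cells (means 86.8 and 6.70 FPKM), and *Klf10* was lower in the 4 stimulated groups than in Control and TBHQ cells.

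How many members changed depended on the comparison. With TBHQ alone 4 of 8 were called, 1 higher and 3 lower, where 29.0% of all tested genes were called. With LPS 6 of 8 were called against Control, 4 higher and 2 lower, beside 48.1% of all genes. With PIC the count was also 6 of 8, 4 higher and 2 lower, beside 58.7%. The TBHQ count was 2 of 8 with DESeq2 and from 2 to 4 with a library left out, so no excess over all genes is read from it. The comparisons with Control share the same 3 Control libraries and are not independent of each other.

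The pretreated groups ask whether TBHQ given before a stimulus changes the response to it. LPS+TBHQ cells gave 6 of 8 against Control, beside 43.7% of all genes, and PIC+TBHQ cells gave 6 of 8 beside 52.4%. Against the stimulus alone, LPS+TBHQ gave 3 members, where 23.9% of all genes were called in either direction. Each of the 3 was lower with TBHQ, and 12.2% of all genes were. PIC+TBHQ against PIC gave 2 members beside 31.3% of all genes, so the count was near the background. Both were lower, in a comparison where 15.5% of all genes were lower. PIC against LPS gave 3 members beside 27.7%, and PIC+TBHQ against LPS+TBHQ gave 3 beside 20.2%. The difference between the TBHQ effects under PIC and under LPS passed the edgeR test for 0 members, where 1.83% of all genes passed. At an unadjusted p under 0.05 it counted 1 member, *Klf6*, and DESeq2 called 1, also *Klf6*. The 1.83% holds for the edgeR adjusted p only. No share of all genes is given at these other settings, so no excess is read from them.

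With libraries scaled to their totals and not by TMM factors, the median log2 fold change of all tested genes moved to -0.23 for PIC against Control, to -0.15 for PIC+TBHQ against Control and to -0.14 for PIC against LPS. Such a change of scaling moves all genes of a comparison alike, so a sign that turned with it says nothing of a single gene. Every called member kept its direction under that scaling. A lower level in these bulk libraries may be fewer cells of a kind or less RNA per cell, which cannot be told apart.

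**Figure D2:**
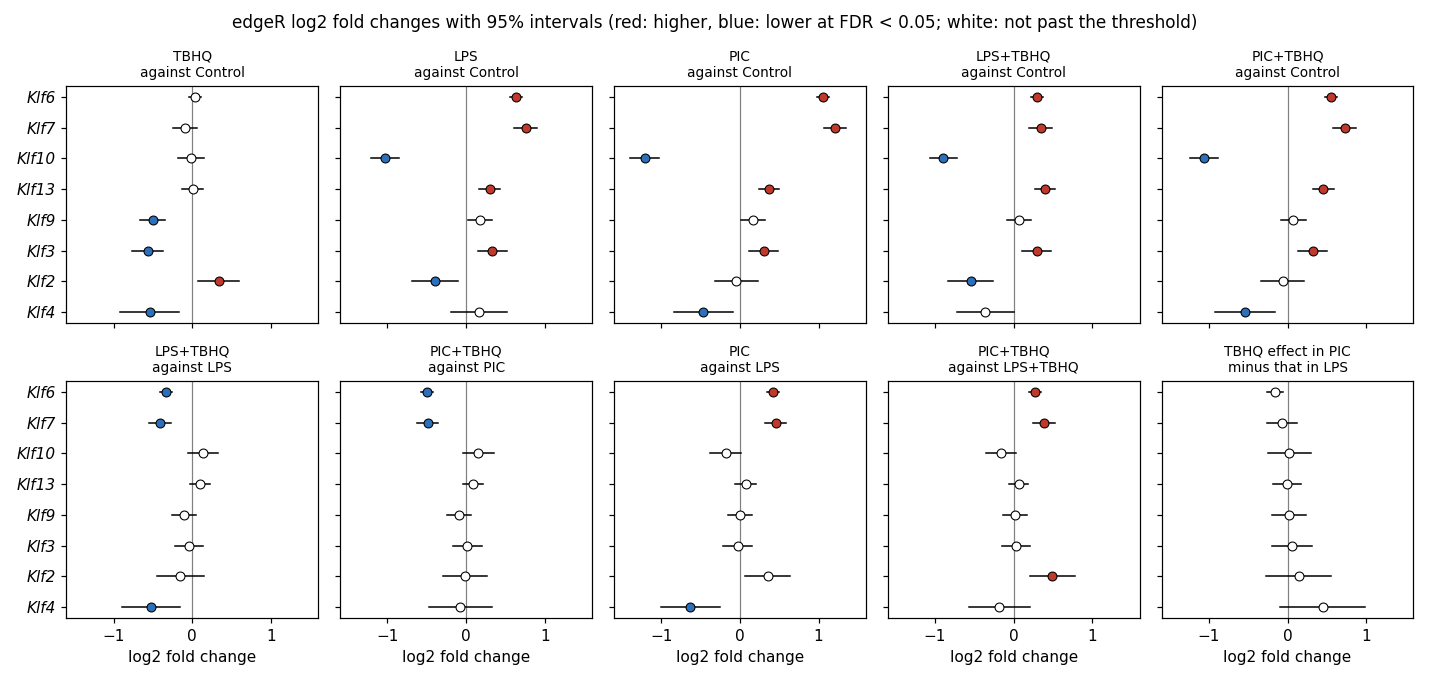
Log2 fold change of each member (y axis) in the 10 comparisons from the edgeR fit of 18 libraries, with 95% intervals; red points are higher, blue points lower and white points not past an adjusted p of 0.05. *Klf6* and *Klf7* were higher with either stimulus (1.05 and 1.21 with PIC) and *Klf10* lower (-1.21 with PIC).

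*Klf6* (ENSMUSG00000000078, chr13:5911481-5920393, plus strand) encodes an activator of transcription that is widely expressed and was first known as an early gene of injured liver cells. The positions given here are those of the authors' files, whose build the sources name as GRCm38 and as mm39. For every member but *Klf4* they differ from the GRCm38 positions of GENCODE, so they cannot be set beside the promoter positions given further on. In Control libraries *Klf6* stood at 40.6, 42.3 and 41.3 FPKM, and in TBHQ libraries at 40.6, 43.8 and 42.8. These groups overlapped, and the log2 fold change of 0.03 (SE 0.04, edgeR adjusted p = 0.5791) did not pass. In LPS libraries *Klf6* was at 65.8, 65.3 and 62.1 FPKM, above the highest Control library in each. It rose 1.55-fold with LPS, a log2 fold change of 0.63 (SE 0.04, 95% interval 0.55 to 0.71, edgeR adjusted p = 1.20e-16). PIC libraries held 87.3, 83.3 and 89.8 FPKM, the highest of any condition, and no PIC library overlapped another group. The rise with PIC was 2.07-fold, with a log2 fold change of 1.05 (SE 0.04, 95% interval 0.98 to 1.13, edgeR adjusted p = 1.38e-23). PIC also stood above LPS, by 0.42 (SE 0.04, edgeR adjusted p = 1.63e-11).

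With TBHQ before the stimulus, *Klf6* was lower. LPS+TBHQ libraries were at 50.6, 51.7 and 50.8 FPKM, below every LPS library and above every Control library. Against LPS this was a log2 fold change of -0.34 (SE 0.04, 95% interval -0.41 to -0.26, edgeR adjusted p = 3.72e-09). PIC+TBHQ libraries were at 60.6, 61.1 and 61.9 FPKM, which placed them between LPS+TBHQ and PIC and just under LPS, with no overlap with any of these groups. Against PIC the log2 fold change was -0.49 (SE 0.04, 95% interval -0.57 to -0.42, edgeR adjusted p = 2.07e-13). *Klf6* remained higher than Control in both pretreated groups, by 0.29 (SE 0.04, edgeR adjusted p = 4.01e-08) in LPS+TBHQ cells and by 0.56 (edgeR adjusted p = 2.75e-15) in PIC+TBHQ cells. These calls passed under each of the 27 alternative fits.

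The change of *Klf6* with TBHQ under PIC minus that under LPS was -0.16 (SE 0.05, 95% interval -0.26 to -0.05, edgeR adjusted p = 0.1210) on the log2 scale. That difference did not pass the adjusted test, and its unadjusted edgeR p was 0.0046. DESeq2 gave -0.17 with an adjusted p of 0.0253. Leaving out PIC replicate 2, the lowest PIC library at 83.3 FPKM, gave -0.20 with an edgeR adjusted p of 0.0383. Over the 27 alternatives the adjusted p (edgeR, DESeq2 or limma) ran from 0.0253 to 0.2760, so the call depends on the tool and on 1 library.

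*Klf7* (ENSMUSG00000025959, chr1:64068606-64161441, minus strand) encodes the member closest to KLF6 and is known from neuron development and fat cell differentiation. Control libraries held 3.18, 2.66 and 2.76 FPKM and TBHQ libraries 2.74, 2.62 and 2.68, which overlapped, and the log2 fold change was -0.10 (SE 0.08, edgeR adjusted p = 0.3732). In LPS libraries the values were 5.11, 4.85 and 4.64 FPKM, and in PIC libraries 6.87, 6.31 and 6.91. The 3 conditions Control, LPS and PIC did not overlap and stood in that order from low to high. *Klf7* rose 1.69-fold with LPS, a log2 fold change of 0.76 (SE 0.07, 95% interval 0.61 to 0.90, edgeR adjusted p = 3.81e-11). With PIC it rose 2.31-fold, a log2 fold change of 1.21 (SE 0.07, 95% interval 1.07 to 1.35, edgeR adjusted p = 2.83e-17). PIC exceeded LPS by 0.45 (SE 0.07, edgeR adjusted p = 1.41e-06).

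TBHQ before the stimulus went with lower *Klf7* as well. The LPS+TBHQ libraries held 3.42, 3.88 and 3.67 FPKM and the PIC+TBHQ libraries 4.66, 4.99 and 4.61. Both groups were apart from their stimulus alone and from Control, while PIC+TBHQ overlapped LPS. The log2 fold change of LPS+TBHQ against LPS was -0.41 (SE 0.07, edgeR adjusted p = 1.62e-05), and that of PIC+TBHQ against PIC was -0.49 (SE 0.07, edgeR adjusted p = 2.98e-07). The difference between these changes was -0.07 (SE 0.10, edgeR adjusted p = 0.8030), which did not pass. *Klf7* stayed above Control by 0.34 (edgeR adjusted p = 1.79e-04) in LPS+TBHQ cells and by 0.72 (edgeR adjusted p = 7.89e-11) in PIC+TBHQ cells. Between the pretreated groups, PIC+TBHQ was higher by 0.38 (edgeR adjusted p = 5.83e-05) for *Klf7* and by 0.27 (edgeR adjusted p = 6.17e-07) for *Klf6*. The called changes of *Klf7* passed under each of the 27 alternative fits.

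*Klf2* (ENSMUSG00000055148, chr8:73072877-73075500, plus strand) encodes a factor of quiescent T cells, endothelium and resting monocytes. Its counts were low, 71 to 147 per library. Control libraries were at 3.81, 3.36 and 3.65 FPKM and TBHQ libraries at 4.64, 4.37 and 4.67, so each TBHQ library exceeded each Control library. *Klf2* was the 1 member called higher with TBHQ alone, with a log2 fold change of 0.34 (SE 0.13, 95% interval 0.08 to 0.60, edgeR adjusted p = 0.0453). This call was close to the threshold. The adjusted p over the 27 alternatives ran from 0.0062 to 0.1580 (edgeR, DESeq2 or limma), and 11 of them did not pass. DESeq2, the tool the study used, gave an adjusted p of 0.103, and edgeR with no filter on low counts gave an adjusted p of 0.132. With a replicate block the edgeR adjusted p was 0.0523, and with only the compared conditions fitted it was 0.0531. Among the fits that did not pass, the edgeR adjusted p was 0.0558 without Control replicate 1, 0.158 without Control replicate 2 and 0.0876 without Control replicate 3. Leaving out a TBHQ library gave an edgeR adjusted p of 0.105 without replicate 1, 0.0611 without replicate 2 and 0.113 without replicate 3. Without LPS+TBHQ replicate 2, a library of neither group, the edgeR adjusted p was 0.0513.

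LPS libraries held 2.70, 2.79 and 2.76 FPKM of *Klf2*, lower than every Control library. The log2 fold change was -0.40 (SE 0.14, 95% interval -0.68 to -0.11, edgeR adjusted p = 0.0193), with adjusted p from 0.0017 to 0.0660 over the alternatives. Without Control replicate 1 the edgeR adjusted p was 0.0656, and without LPS replicate 1 it was 0.0557. The call was also lost with DESeq2, at an adjusted p of 0.066, and in edgeR with no filter, at 0.061. In LPS+TBHQ libraries *Klf2* was at 2.69, 2.44 and 2.31 FPKM, the lowest of the 6 conditions. Its log2 fold change against Control, -0.55 (SE 0.14, edgeR adjusted p = 0.0014), passed in all 27 alternatives. Against LPS it was -0.15 (SE 0.15, edgeR adjusted p = 0.5208), which did not pass, and it passed in 0 of the 27 alternatives. PIC libraries, at 3.69, 3.94 and 3.04 FPKM, overlapped Control, and PIC+TBHQ libraries, at 3.24, 3.47 and 3.71, did too. PIC against Control gave -0.05 (SE 0.13, edgeR adjusted p = 0.7960), and no direction is read from it.

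The stimuli were also set against each other for *Klf2*. PIC against LPS gave a log2 fold change of 0.35 (SE 0.14, edgeR adjusted p = 0.0655), which missed the threshold although no PIC library overlapped an LPS library. Without PIC replicate 3, the lowest of its group at 3.04 FPKM, the log2 fold change was 0.46 with an edgeR adjusted p of 0.024, within a range of 0.0058 to 0.2360 over the alternatives. PIC+TBHQ exceeded LPS+TBHQ by 0.49 (SE 0.14, edgeR adjusted p = 0.0105), and this was called. The edgeR adjusted p was 0.0501 without LPS+TBHQ replicate 3 and 0.0593 without PIC+TBHQ replicate 3, the highest values among its alternatives, which began at 9.77e-04.

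*Klf4* (ENSMUSG00000003032, chr4:55527143-55532466, minus strand) encodes a factor of monocyte differentiation and alternative macrophage activation that is also used to reprogram cells to pluripotency. It had the lowest counts, 42 to 90 per library. Control libraries were at 1.45, 1.75 and 1.46 FPKM and TBHQ libraries at 1.00, 1.20 and 1.00, with no overlap. With TBHQ the log2 fold change was -0.54 (SE 0.18, 95% interval -0.91 to -0.17, edgeR adjusted p = 0.0227). Its adjusted p (edgeR, DESeq2 or limma) ran from 0.0131 to 0.1180 over the alternatives. It was 0.118 in edgeR without Control replicate 2, the highest Control library, 0.073 without TBHQ replicate 1 and 0.078 without TBHQ replicate 3. DESeq2 did not call it either, at an adjusted p of 0.0549.

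LPS libraries spread widely in *Klf4*, at 1.48, 1.71 and 2.06 FPKM, and overlapped Control. With LPS its log2 fold change of 0.17 (SE 0.17, edgeR adjusted p = 0.4636) did not pass. PIC libraries were at 1.18, 1.23 and 1.03 FPKM, lower than every Control and LPS library. Against Control the log2 fold change was -0.46 (SE 0.18, edgeR adjusted p = 0.0305), with adjusted p from 0.0015 to 0.1330 over the alternatives. The edgeR adjusted p was 0.133 without Control replicate 2, 0.0557 without PIC replicate 1 and 0.133 without PIC replicate 3. With DESeq2 the adjusted p was 0.0967, and in edgeR with no filter it was 0.059. Against LPS, *Klf4* was lower in PIC cells, with a log2 fold change of -0.63 (SE 0.18, edgeR adjusted p = 0.0092) and alternatives from 0.0012 to 0.0814 in adjusted p. The call was lost without LPS replicate 3, at an edgeR adjusted p of 0.0814, and without PIC replicate 3, at 0.0504.

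In LPS+TBHQ libraries *Klf4* was at 1.39, 1.03 and 1.23 FPKM, below each LPS library. The log2 fold change against LPS was -0.53 (SE 0.18, 95% interval -0.89 to -0.16, edgeR adjusted p = 0.0291), with adjusted p from 0.0142 to 0.1730 over the alternatives. LPS replicate 3, the highest of the 18 libraries at 2.06 FPKM, bore on this call, since without it the log2 fold change was -0.39 with an edgeR adjusted p of 0.173. The edgeR adjusted p was 0.057 without LPS replicate 2, 0.142 without LPS+TBHQ replicate 2 and 0.0626 without LPS+TBHQ replicate 3. DESeq2 gave an adjusted p of 0.0696 for this comparison, and edgeR with no filter gave 0.0573. PIC+TBHQ libraries, at 0.897, 1.13 and 1.19 FPKM, overlapped PIC, and that log2 fold change was -0.08 (SE 0.20, edgeR adjusted p = 0.8098). The difference between the TBHQ changes under PIC and LPS was 0.45 (SE 0.27, edgeR adjusted p = 0.4745) and did not pass. Against Control, the log2 fold change of PIC+TBHQ was -0.54 (SE 0.19, edgeR adjusted p = 0.0140). The edgeR adjusted p was 0.0769 without Control replicate 2 and 0.0837 without PIC+TBHQ replicate 1, within a range of 0.0017 to 0.0837 over the alternatives. So each call of *Klf4* was lost in at least 1 leave-one-out fit.

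*Klf3* (ENSMUSG00000029178, chr5:64960731-64990244, plus strand) encodes a repressor that binds the corepressor CtBP. Control libraries were at 1.44, 1.57 and 1.41 FPKM, and TBHQ libraries, at 0.913, 1.13 and 0.950, were lower without overlap. *Klf3* fell 1.48-fold with TBHQ, a log2 fold change of -0.56 (SE 0.10, 95% interval -0.76 to -0.37, edgeR adjusted p = 2.18e-05). This call passed in all 27 alternatives. In the other direction, LPS libraries were at 2.03, 1.90 and 1.67 FPKM and PIC libraries at 1.94, 1.77 and 1.81, each above the highest Control library. It rose by 0.33 (SE 0.09, edgeR adjusted p = 0.0025) on the log2 scale with LPS and 0.30 (edgeR adjusted p = 0.0042) with PIC. Under scaling to library totals, where the median of all genes was -0.23, the rise with PIC was 0.09 with an edgeR adjusted p of 0.411, the highest among its alternatives, which began at 0.0021.

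The pretreated groups did not stand apart from the stimulus alone in *Klf3*. LPS+TBHQ libraries held 1.80, 1.84 and 1.80 FPKM and PIC+TBHQ libraries 1.99, 1.77 and 1.78, and both overlapped LPS and PIC. They were above Control by 0.29 (SE 0.09, edgeR adjusted p = 0.0074) in LPS+TBHQ cells and by 0.32 (edgeR adjusted p = 0.0030) in PIC+TBHQ cells. The latter was 0.17 under that scaling, at an edgeR adjusted p of 0.103, within a range from 0.0022 to 0.1030. LPS+TBHQ against LPS gave -0.04 (SE 0.09, edgeR adjusted p = 0.7978), and PIC+TBHQ against PIC gave 0.02 (SE 0.09, edgeR adjusted p = 0.9132).

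*Klf9* (ENSMUSG00000033863, chr19:23118590-23145498, plus strand) encodes a repressor that binds Sin3 and is induced by glucocorticoids and thyroid hormone, and by NRF2 under oxidative stress. Control libraries were at 4.79, 5.12 and 5.14 FPKM, and TBHQ libraries, at 3.37, 3.45 and 3.81, were lower without overlap. *Klf9* fell 1.42-fold with TBHQ, with a log2 fold change of -0.50 (SE 0.08, 95% interval -0.66 to -0.34, edgeR adjusted p = 4.75e-06). The call passed in all 27 alternatives. *Klf9* and *Klf3* were thus the members lowered by TBHQ alone whose calls passed in each of those fits.

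With the stimuli, *Klf9* was near the threshold. LPS libraries were at 5.66, 6.02 and 5.39 FPKM and PIC libraries at 5.96, 5.26 and 5.89, each above every Control library. The log2 fold change was 0.17 (SE 0.08, edgeR adjusted p = 0.0577) with LPS and 0.17 (edgeR adjusted p = 0.0529) with PIC, and neither passed. Under LPS the adjusted p ran from 0.0256 to 0.3710 over the alternatives, and 8 of 27 passed. The edgeR adjusted p was 0.0302 without LPS replicate 3, 0.0445 without PIC replicate 1, 0.0407 without PIC replicate 2 and 0.0456 without PIC replicate 3. Under PIC it ran from 0.0146 to 0.5850, and 9 of 27 passed. The highest came under scaling to library totals, where the log2 fold change was -0.0491 and the median of all genes was -0.23. The edgeR adjusted p was 0.0356 without LPS replicate 2, 0.0361 without LPS replicate 3, 0.0146 without PIC replicate 2 and 0.0487 without PIC+TBHQ replicate 2. LPS+TBHQ libraries were at 5.29, 5.10 and 5.43 FPKM and PIC+TBHQ libraries at 5.12, 5.66 and 5.17, and both overlapped Control.

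*Klf10* (ENSMUSG00000037465, chr15:38291707-38300950, minus strand) encodes a Sin3-binding repressor induced by TGF-β. Control libraries held 7.65, 8.99 and 8.04 FPKM and TBHQ libraries 7.78, 8.60 and 8.10, which overlapped. *Klf10* had a log2 fold change of -0.02 (SE 0.08, edgeR adjusted p = 0.9125) with TBHQ, and its sign turned when single libraries were left out. LPS libraries were at 3.86, 3.92 and 4.40 FPKM and PIC libraries at 3.21, 3.98 and 3.60, both below every Control and TBHQ library. *Klf10* fell 2.04-fold with LPS, a log2 fold change of -1.03 (SE 0.09, 95% interval -1.21 to -0.85, edgeR adjusted p = 2.93e-12). With PIC it fell 2.31-fold, a log2 fold change of -1.21 (SE 0.09, 95% interval -1.39 to -1.03, edgeR adjusted p = 3.02e-14). The fall with PIC was the largest of any member in the 10 comparisons as fitted, and these calls passed in all 27 alternatives.

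The fall of *Klf10* was also present after TBHQ. LPS+TBHQ libraries were at 3.91, 4.84 and 4.64 FPKM and PIC+TBHQ libraries at 3.85, 4.04 and 4.04. Both overlapped the matching stimulus alone and lay below every Control library. Against Control the log2 fold change was -0.89 (SE 0.08, edgeR adjusted p = 5.64e-11) in LPS+TBHQ cells and -1.06 (edgeR adjusted p = 1.01e-12) in PIC+TBHQ cells. LPS+TBHQ against LPS gave 0.14 (SE 0.09, edgeR adjusted p = 0.3336), and PIC+TBHQ against PIC gave 0.16 (SE 0.10, edgeR adjusted p = 0.2425). Neither of these passed. PIC against LPS gave -0.18 (SE 0.10, edgeR adjusted p = 0.1761) and was not called. PIC+TBHQ against LPS+TBHQ gave -0.16 (SE 0.09, edgeR adjusted p = 0.2436) and was not called either. Under scaling to library totals both passed, at -0.31 (edgeR adjusted p = 0.0106) and -0.25 (edgeR adjusted p = 0.0456). The medians of all genes there were -0.14 and -0.08.

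*Klf13* (ENSMUSG00000052040, chr7:63536099-63588663, minus strand) encodes a Sin3-binding factor known in T cells for late expression of the chemokine gene *Ccl5*. Control libraries were at 5.55, 5.06 and 5.31 FPKM and TBHQ libraries at 5.48, 5.72 and 4.83, which overlapped, with a log2 fold change of 0.01 (SE 0.06, edgeR adjusted p = 0.9592). LPS libraries held 6.77, 6.15 and 6.74 FPKM and PIC libraries 7.21, 6.58 and 7.002. Each of these 6 libraries was above every Control and TBHQ library. *Klf13* rose with LPS by 0.30 (SE 0.06, 95% interval 0.17 to 0.43, edgeR adjusted p = 2.21e-04) on the log2 scale. With PIC it rose by 0.37 (SE 0.06, 95% interval 0.24 to 0.50, edgeR adjusted p = 6.23e-06), which was 0.15 under scaling to library totals.

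LPS+TBHQ libraries were at 7.33, 7.10 and 6.63 FPKM and PIC+TBHQ libraries at 7.64, 6.89 and 7.37. They overlapped the stimulus alone and were above Control by 0.39 (SE 0.06, edgeR adjusted p = 3.05e-06) in LPS+TBHQ cells and by 0.46 (edgeR adjusted p = 1.60e-07) in PIC+TBHQ cells. Unlike *Klf6* and *Klf7*, *Klf13* had its highest mean in PIC+TBHQ cells, although the 4 stimulated groups overlapped in their order. LPS+TBHQ against LPS gave 0.10 (SE 0.06, edgeR adjusted p = 0.2960), and PIC+TBHQ against PIC gave 0.09 (SE 0.06, edgeR adjusted p = 0.3161), so neither passed. Under scaling to library totals the last log2 fold change was 0.16 with an edgeR adjusted p of 0.0498, where the median of all genes was 0.08. The called changes of *Klf13* passed in all 27 alternatives.

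The calls can be counted over the 8 members and 10 comparisons, 80 in all. Of these, 39 were called, and 29 of the 39 were called in each of 27 alternative fits. The other 10 belonged to *Klf2*, *Klf4* and *Klf3*. Of the 41 that were not called, 34 were not called in any of those fits that gave an adjusted p. DESeq2 gave none for *Klf2*, *Klf3* and *Klf4* in the difference between the TBHQ effects.

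Other annotated genes overlap the spans of *Klf3*, *Klf7*, *Klf9* and *Klf13*. Within *Klf3* these were *Gm20033* on the opposite strand and *C230096K16Rik* on the same strand, with at most 3 and 5 counts in a library. Within *Klf7* they were *Gm13748* on the opposite strand, with at most 8 counts, *Mir6899* with 0, and *Gm26649*, which the table does not list. *Klf9* holds *Mir1192* (at most 5 counts), and *Klf13* holds *Gm27252* and *E030018B13Rik* on the opposite strand (at most 6 and 5).

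The members did not move as a block. *Klf6* and *Klf7* had a Pearson correlation of 0.979 in log2 CPM (counts scaled to library size and TMM factor) over the 18 libraries, and *Klf3* and *Klf9* had 0.913. *Klf7* and *Klf10* had -0.901, and *Klf10* and *Klf13* had -0.894. Libraries of a condition share their treatment, so these values describe mostly the 6 conditions and carry no test.

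For each member the most similar gene was sought by the same measure among 10451 genes with a mean of at least 50 counts. For *Klf6* the nearest were *Arhgef3* (0.993), *Mdm2* (0.990) and *Pcdh7* (0.989), and for *Klf7* they were *Helz2* (0.988), *Mapre2* (0.988) and *Trim25* (0.987). For *Klf10* the nearest were *Spc25* (0.987), *Nde1* (0.984) and *Kif4* (0.982). *Klf9* was nearest to *Hspa5* (0.967), *Soat1* (0.948) and *Trib3* (0.948). *Soat1* was also nearest to *Klf3* (0.960), before *Pgm1* (0.953) and *Rras* (0.951). *Klf13* was nearest to *Nisch* (0.946), *Fth1* (0.943) and *Lxn* (0.942). The low-count members had lower values, with *Calm3* (0.890) first for *Klf2* and *2410006H16Rik* (0.892) first for *Klf4*.

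*Klf6* and *Klf7* were also the closest pair in coding sequence. The highest identity over 240 bases without gaps was computed for the 28 pairs of members from GENCODE transcripts, a comparison chosen after seeing the data. It was 81.3% for *Klf6* and *Klf7*, against a median of 64.6% over the pairs and a lowest value of 57.5%. Next came *Klf2* and *Klf4* at 78.8%. *Klf9* and *Klf13* shared 73.8%. These best windows ended 0 to 139 bases before the end of the coding sequence, where the zinc fingers are encoded. Of all 50-base words in the members' transcripts, at most 0.350% (*Klf3*) were found in transcripts of another gene.

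The promoters of the pairs that moved together are shown, so that the letters the family binds can be seen in them. A RefSeq table on build GRCm38.p6 held 7 of the 8 members, without *Klf10*. The 250 bases before each start were searched on both strands for CACCC, present in 52.0% of 32851 promoters, and GGGCGG, present in 32.7%. CACCC occurred in *Klf3* (5 times), *Klf7* (3), *Klf2* (1), *Klf9* (1) and *Klf13* (1), and in neither *Klf4* nor *Klf6*. GGGCGG occurred in 6 of the 7, all but *Klf9*. In the sequences, capitals mark CACCC or GGGCGG on either strand, and the sequence runs 5′ to 3′ on the gene's strand and stops where an annotated exon begins. For *Klf7* the window lies inside the GENCODE span of the gene, chr1:64029447-64122282, and not upstream of that span. The stretches are chr13:5861239-5861481 (plus strand) for *Klf6*, chr1:64121492-64121639 (minus strand) for *Klf7*, chr5:64803271-64803387 (plus strand) for *Klf3* and chr19:23140976-23141225 (plus strand) for *Klf9*.
Klf6: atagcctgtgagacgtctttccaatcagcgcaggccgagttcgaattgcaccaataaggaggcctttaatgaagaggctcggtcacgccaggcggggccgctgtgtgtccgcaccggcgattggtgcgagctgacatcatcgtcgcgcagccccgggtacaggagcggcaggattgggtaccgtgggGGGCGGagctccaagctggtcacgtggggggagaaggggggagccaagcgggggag
Klf7: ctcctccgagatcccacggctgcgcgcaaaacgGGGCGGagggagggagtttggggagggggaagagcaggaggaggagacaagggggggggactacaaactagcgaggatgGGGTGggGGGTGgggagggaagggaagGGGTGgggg
Klf3: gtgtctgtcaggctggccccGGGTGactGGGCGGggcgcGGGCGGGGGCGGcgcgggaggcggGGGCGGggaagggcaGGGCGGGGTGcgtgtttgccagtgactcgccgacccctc
Klf9: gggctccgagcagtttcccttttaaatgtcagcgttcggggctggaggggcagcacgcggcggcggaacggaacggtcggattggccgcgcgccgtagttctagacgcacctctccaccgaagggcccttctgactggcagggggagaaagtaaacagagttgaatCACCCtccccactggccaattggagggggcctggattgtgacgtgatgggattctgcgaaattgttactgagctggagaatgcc
*Klf6* and *Klf7* each showed 1 GGGCGG, and only *Klf7* of that pair showed CACCC. The *Klf6* stretch ends before the GENCODE span of its gene and the *Klf7* stretch lies within its own, so these are unlike regions. Over the full 250 bases *Klf3* had the most matches of each, some of them past the stretch shown, and *Klf9* had 1 CACCC. A match is a description of letters and not a bound site.

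Other letters were searched in the same windows. TATAAA (12.4% of all promoters), TGACGTCA (1.55%) and TGACTCA (4.46%) occurred in 0 of the 7 members. TGACNNNGC, the core of the antioxidant response element that NRF2 binds, was present in *Klf3* and *Klf6*, beside 10.2% of all promoters. A loose form of the NF-κB element, 10 letters long, was present in *Klf2*, *Klf3*, *Klf4*, *Klf6* and *Klf13*, beside 45.8% of all promoters. The members' windows were rich in G and C, from 59.2% in *Klf7* to 78.4% in *Klf3*, against a median of 52.4% over all promoters.

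Other genes of the family and its partners give the setting. Of 9 other Klf genes 3 were tested, and the others had at most 8 counts in a library. *Klf8* rose with LPS by 0.44 (edgeR adjusted p = 6.01e-04) and with PIC by 0.52 (edgeR adjusted p = 4.56e-05), *Klf11* fell with TBHQ by 0.93 (edgeR adjusted p = 0.0036), and *Klf16* was lower with PIC at -0.29 (edgeR adjusted p = 0.0012). *Klf11*, the closest relative of *Klf10*, was lower with PIC as well, at -1.02 (edgeR adjusted p = 6.72e-04). Counts of *Klf11* were low, 19 to 64 per library. With LPS *Klf11* changed by -0.71 (edgeR adjusted p = 0.0155) and *Klf16* by -0.19 (edgeR adjusted p = 0.0351). Of 9 Sp factor genes 5 were tested, and with PIC 4 were lower and 0 higher. Of all 13691 tested genes 4120 were lower there, and 58.7% were called in either direction. Their median log2 fold change was -0.33 beside -0.01 over all genes. *Sp3* changed by -0.41 (edgeR adjusted p = 5.43e-07) and *Sp8* by -1.31 (edgeR adjusted p = 0.0056) there. Counts of *Sp8* were low, 17 to 25 in Control and 5 to 11 in PIC libraries.

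The 12 corepressor and coactivator genes were tested in full. With PIC 3 were higher and 5 lower, a share of 66.7% beside 58.7% of all genes, with a median log2 fold change of -0.07. *Kat2a* fell by 0.55 (edgeR adjusted p = 6.51e-12), *Sin3b* rose by 0.51 (edgeR adjusted p = 3.83e-12) and *Ctbp1*, the partner of KLF3, changed by -0.27 (edgeR adjusted p = 1.70e-06). With TBHQ alone 5 were higher and 2 lower, a share of 58.3% beside 29.0% of all genes.

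Of 17 genes acting upstream of the family or on the turnover of its proteins, 6 were higher and 8 lower with PIC, a share of 82.4% beside 58.7% of all genes. Their median log2 fold change was -0.04 beside -0.01 over all genes. *Smad3*, which carries the TGF-β signal, fell by 2.02 (edgeR adjusted p = 1.51e-08), and *Mef2c*, an activator of *Klf2*, fell by 1.38 (edgeR adjusted p = 1.45e-21). Counts of *Smad3* were low, 60 to 86 in Control and 11 to 22 in PIC libraries. *Tgfb1* rose by 0.80 (edgeR adjusted p = 1.01e-16). The fall of *Klf10* thus stood beside lower *Smad3* and higher *Tgfb1* RNA, and whether they are linked was not tested.

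Of 18 genes known as targets of KLF2, KLF4, KLF6, KLF9, KLF10 or KLF13, 15 were tested. They include *Nos2*, *Il6* and *Ccl2*, which the study had already reported as raised by the stimuli and lower after TBHQ. The list was chosen with earlier results of these data known, so no excess over all genes is read from its counts. With PIC 9 were higher and 3 lower, a share of 80.0% beside 58.7% of all genes, with a median log2 fold change of 0.73. There *Ccl5* rose by 7.23 (edgeR adjusted p = 7.91e-39), *Il6* by 5.30 (edgeR adjusted p = 7.37e-27) and *Ccl2* by 4.79 (edgeR adjusted p = 5.28e-40). With TBHQ before LPS 8 of the 15 were lower and 0 higher, where 12.2% of all genes were lower, with a median of -0.47 beside 0.00 over all genes. With TBHQ before PIC 9 were lower and 0 higher, where 15.5% of all genes were lower, with a median of -0.26 beside 0.01. The TBHQ effect differed between the stimuli for 2 of the 15, where 1.83% of all genes passed. Its change under PIC minus that under LPS was 0.62 (edgeR adjusted p = 1.94e-06) for *Ccl5* and -0.32 (edgeR adjusted p = 0.0296) for *Bcl6*.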

How the data were processed

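RNA of RAW 264.7 cells was sequenced as 18 poly(A), strand-specific, paired-end libraries. The authors aligned reads with HISAT2 2.0.5, assembled with StringTie 1.3.3b and deposited raw counts per gene from featureCounts 1.5.0-p3. The authors also deposited FPKM, scaled by gene length and a factor per library (0.943 to 1.12 relative to scaling by count totals), which was used for levels and in limma. Groups followed the labels, and 0 sample columns were left out. The members and lists were chosen with earlier results of these data known.

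Counts were tested with edgeR 4.0.16 in R 4.3.3 (TMM, filterByExpr, quasi-likelihood, 1 fit over 18 libraries, common dispersion 0.00192). The table lists 56748 genes, 27701 with any count, and 13691 entered the test. Genes named were the 8 members, at most 3 tested genes per fixed list and comparison with the largest change past the threshold, and the 3 genes most like each member. The genes overlapping members were named after their values were seen. Alternatives were DESeq2 1.42.0, limma 3.58.1 on log2(FPKM + 1) and log2(FPKM + 0.1), RLE or total library size scaling, no filter or a mean of 50 counts, compared conditions only, a replicate block, each library left out, and stricter thresholds. Tables and plots used matplotlib 3.10.9, scipy 1.17.1, numpy 2.4.6 and pandas 2.3.3 under Python 3.11.15. Promoters came from RefSeq (GRCm38.p6) and transcripts from GENCODE. Intervals are 95%.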

Additional observations from a re-analysis of the deposited data

How the results depend on the processing

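In 27 alternative fits, 29 of the 39 called changes passed each time, and the counts of changed members were mostly within 1.5 times those reported. With DESeq2, TBHQ against Control gave 2 members in place of 4 (*Klf2* and *Klf4* were lost), 3 further calls were lost (*Klf2* with LPS, *Klf4* with PIC, and *Klf4* in LPS+TBHQ against LPS), and the difference between the TBHQ effects gave 1 in place of 0. With no filter on low counts 4 calls were lost, the same 3 and *Klf2* with TBHQ. At an adjusted p under 0.01 with a log2 fold change beyond 2, the limit the study used, each of the 9 pairwise comparisons gave 0 members, where edgeR gave 2 to 6 at the reported threshold. Of all 13691 tested genes, only 26 to 489 passed that limit in a comparison, so the 0 is not read as a trait of the members. With a limit of 1 the count was 1 for LPS, 3 for PIC and 1 for PIC+TBHQ against Control, and 0 in the other 6 pairwise comparisons. Of all 13691 tested genes, 880, 1645 and 1100 passed in the first-named comparisons, in that order, and 116 to 591 in the others. The stricter limits take fewer genes by construction, and for DESeq2 the cause was not tested.

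With a library left out, the count ran from 2 to 4 for TBHQ, 5 to 7 for LPS, 5 to 7 for PIC, 6 to 6 for LPS+TBHQ and 5 to 6 for PIC+TBHQ, each against Control. It ran from 2 to 3 for LPS+TBHQ against LPS, 2 to 2 for PIC+TBHQ against PIC, 2 to 3 for PIC against LPS, 2 to 3 for PIC+TBHQ against LPS+TBHQ and 0 to 1 for the difference between TBHQ effects. The lowest TBHQ count came without Control replicate 2, TBHQ replicate 1 or TBHQ replicate 3, and the 1 came without PIC replicate 2.

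Whether replicate numbers pair the libraries is not stated in the sources used. The 27 correlations of residuals between like-numbered libraries lay from -0.04 to 0.06. They show no large shared deviation but cannot show that the libraries were unpaired. The replicate block changed 1 call, *Klf2* in TBHQ against Control, and left 3 members there.

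Reversed signs all belonged to changes that were not called, and the cause was not tested. Scaling to library totals moves all genes of a comparison alike, to a median of -0.232 for PIC against Control. Under it *Klf9* was -0.0491 for PIC, -0.0009 for LPS+TBHQ and -0.0735 for PIC+TBHQ, each against Control, and -0.0726 for PIC+TBHQ against LPS+TBHQ. *Klf2* was 0.0562 for PIC+TBHQ against PIC. *Klf13* was -0.0579 for PIC against LPS, -0.0239 for PIC+TBHQ against LPS+TBHQ and 0.034 for the difference between TBHQ effects. *Klf3* was -0.0572 for PIC+TBHQ against LPS+TBHQ. For PIC against LPS, *Klf9* was 0.0057 with DESeq2, 0.0069 with RLE factors, and 0.0031 or 0.0035 with limma (pseudocount 1 or 0.1). With a mean of 50 counts required, *Klf3* was -0.0021 for PIC+TBHQ against PIC. With no filter, *Klf9* was -0.0026 for PIC+TBHQ against LPS+TBHQ and -0.0006 for the difference between TBHQ effects.

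Leaving out single libraries also turned signs, with these lowest and highest values. For TBHQ against Control they were -0.0636 to 0.053 (*Klf10*) and -0.0463 to 0.0748 (*Klf13*), and for PIC against Control -0.1109 to 0.0792 (*Klf2*). For LPS+TBHQ against LPS *Klf3* ran from -0.1164 to 0.0222. For PIC+TBHQ against PIC the ranges were -0.1376 to 0.053 (*Klf2*), -0.0467 to 0.0414 (*Klf3*) and -0.1708 to 0.0322 (*Klf4*). For PIC against LPS they were -0.1017 to 0.0356 (*Klf3*) and -0.0385 to 0.0522 (*Klf9*). For PIC+TBHQ against LPS+TBHQ they were -0.0332 to 0.0548 (*Klf3*) and -0.0361 to 0.0351 (*Klf9*). For the difference between TBHQ effects they were -0.0666 to 0.0813 (*Klf10*), -0.059 to 0.0269 (*Klf13*), -0.0105 to 0.1183 (*Klf3*) and -0.0513 to 0.0397 (*Klf9*).

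*Klf2* and *Klf4* had the lowest counts of the members, 42 to 147 per library, and whether depth bears on their calls was not tested. With 3 libraries per condition the p values rest on the spread between replicates of a single line. FPKM describes RNA, and protein, activity and binding of these factors were not measured. TBHQ alone was sampled at 4 h and the other groups after 12 h of stimulus or medium. Changes in cell number and in RNA per cell were not measured.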
